A study of Mus musculus with 2 samples.

Results

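The genes described here encode proteins of type I interferon signalling and of cytosolic RNA sensing in the mouse. They are the receptor chains Ifnar1 and Ifnar2, the signal transducer Stat2, the interferon regulatory factors (IRFs) Irf1, Irf3, Irf7 and Irf9, and the RNA sensors Ifih1 and Ddx58. They were chosen by name with their FPKM levels in both libraries already known, so those levels and their ratios are given as a description. All 9 were found among 31253 genes of the table, and all 9 were at 1 FPKM or more in both libraries. FPKM scales the fragments of a transcript by its length and by the size of the library, so that levels of different genes can be set side by side.

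The study compared cultured mouse neural retinal progenitor cells (mNRPCs) with retina tissue, both of strain C57BL/6. The mNRPC library came from cells at passage 24, labelled 427NR-P24. By the study's methods, mNRPCs were grown from the dissociated neural retina of adult mice on Matrigel in a medium with N2, B27, basic fibroblast growth factor (bFGF) and the glycogen synthase kinase 3 inhibitor CHIR99021. The retina library, labelled C57, came from tissue, and the age and number of its donor animals were not given in the sources used here. Neither label names a transgene, a deletion or treatment with an interferon. Each group had 1 library, so no difference below has a replicate check and no p-value was calculated. The study describes the cells as an established line, and the number of animals behind it was not given in the sources used here.

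Type I interferons are secreted when a cell senses foreign or misplaced nucleic acid, and bind a receptor made of the IFNAR1 and IFNAR2 chains on the same or a neighbouring cell. The receptor works through the kinases JAK1 and TYK2, and a resulting complex that holds STAT2 and IRF9 enters the nucleus and switches on a large set of target genes. The RNA sensors RIG-I, the product of Ddx58, and MDA5, the product of Ifih1, signal through MAVS to IRF3 and IRF7, which turn on interferon genes. Several of these components, IRF7 among them, are known to be interferon targets themselves. In the retina, interferon responses are known from glia and neurons during infection and inflammation.

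A pair of known DNA elements carries this signal. The interferon-stimulated response element holds GAAA, any 2 bases and GAAA again, and is bound by IRFs and the complex that holds STAT2 and IRF9, and the gamma-activated site holds TTCNNNGAA and is bound by STAT dimers. RefSeq promoter windows (GRCm38.p6, 250 bases before to 50 after a gene's start) were searched for both, on both strands. Of the 9 genes, all had a window, 11 windows in total. The stretches below are shown because they hold a match, which is in capitals, and each reads 5′ to 3′ on the gene's strand. The stretch of Stat2 (chr10:128270248-128270497, plus strand) ends at the base before its start, and its match begins 222 bases before the start. The stretch of Irf1 (chr11:53769764-53770013, plus strand) ends likewise, with the match 90 bases before the start. The stretch of Ddx58 (chr4:40239806-40240075, minus strand) has its match 2 bases after the start, and that of Ifih1 (chr2:62646206-62646235, minus strand) 32 bases after it, so both lie in the transcribed part of the window.
Stat2: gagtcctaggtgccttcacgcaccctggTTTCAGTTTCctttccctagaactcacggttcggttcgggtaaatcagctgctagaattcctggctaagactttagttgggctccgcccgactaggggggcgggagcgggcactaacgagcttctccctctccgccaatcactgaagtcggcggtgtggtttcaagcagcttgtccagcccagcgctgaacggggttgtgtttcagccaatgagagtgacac
Irf1: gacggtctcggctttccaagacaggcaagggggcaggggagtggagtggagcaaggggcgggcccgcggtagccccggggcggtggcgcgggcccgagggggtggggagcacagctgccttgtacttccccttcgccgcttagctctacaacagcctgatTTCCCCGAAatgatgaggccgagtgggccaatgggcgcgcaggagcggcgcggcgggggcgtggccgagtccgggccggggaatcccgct
Ddx58: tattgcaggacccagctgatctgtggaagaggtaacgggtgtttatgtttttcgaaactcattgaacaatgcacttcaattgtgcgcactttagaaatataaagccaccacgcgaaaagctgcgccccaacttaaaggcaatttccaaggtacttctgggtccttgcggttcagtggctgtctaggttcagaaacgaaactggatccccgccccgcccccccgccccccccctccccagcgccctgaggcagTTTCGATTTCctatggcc
Ifih1: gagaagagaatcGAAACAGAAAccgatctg

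The response element was found in the windows of Stat2, Ddx58 and Ifih1, 3 of the 11 windows, while 3.44% of all 32851 windows hold it. TTCNNNGAA was found for Irf1, Ifnar1 and Ifnar2, also in 3 windows, against 8.30% of all windows. No window of these genes held both motifs, and the windows of Irf3, Irf7 and Irf9 held neither, which says only that these letters are not in those windows. A match is a description of the letters and was not tested for binding.

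Of the 9 genes, 7 were at least 2-fold higher in mNRPCs than in retina on the log2(FPKM + 1) scale, 2 lay within 2-fold and none was lower. Among all 13780 genes compared, those reaching 1 FPKM in either library, 24.5% were at least 2-fold higher and 30.0% were at least 2-fold lower. Since the genes were chosen with these values known, the count describes them and is no test. The median log2 ratio of the 9 genes was 3.40, against −0.12 over all genes compared. Their levels summed to 727 FPKM in mNRPCs and 70.6 FPKM in retina, and Irf7 made up most of the sum in mNRPCs.

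**Figure D1:**
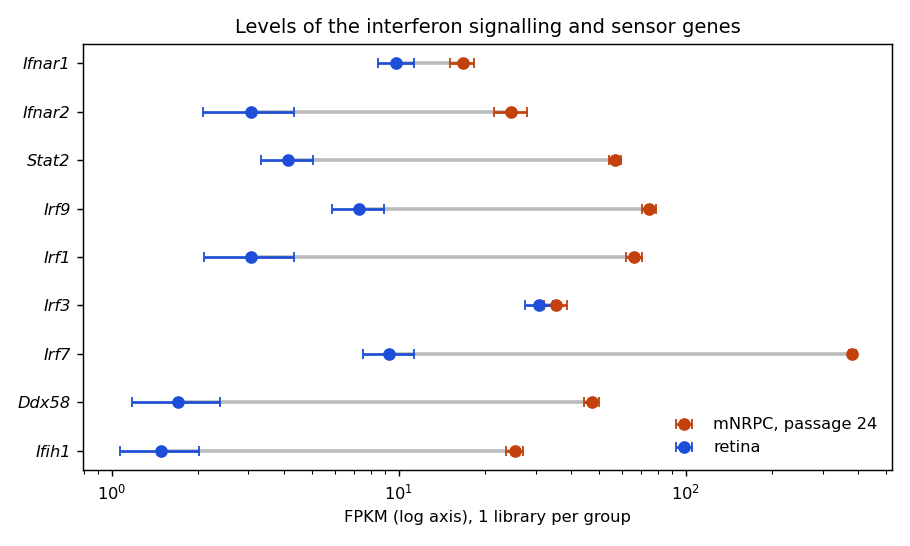
FPKM (log axis) of the 9 genes in the mNRPC library (orange) and the retina library (blue), 1 library each, with bars for the 95% interval of the counting error from estimated fragments. Irf7 spans the widest gap, from 9.27 to 381 FPKM, and the intervals of Irf3 overlap.

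**Figure D2:**
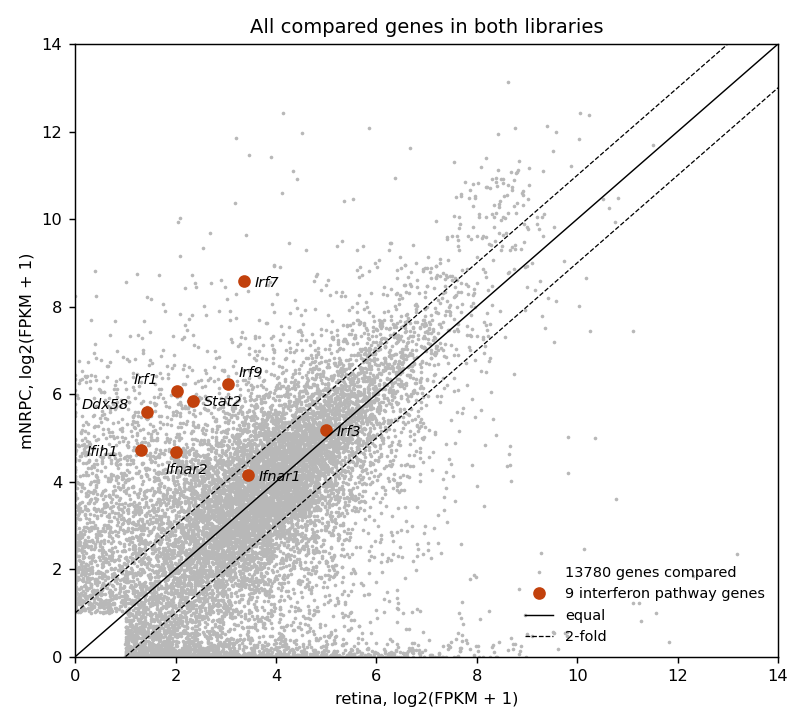
Level in mNRPCs against level in retina, both as log2(FPKM + 1), for all 13780 genes compared (grey) and the 9 genes (orange), with lines at equal levels and at 2-fold. Ifnar1 and Irf3 lie between the 2-fold lines and the other genes above the upper line.

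The receptor chains differed from each other. Ifnar1, the chain that recruits TYK2, was at 16.7 FPKM in mNRPCs and 9.82 FPKM in retina, a log2 ratio of 0.71 with an estimated counting error of 0.12. Here and below, the counting error beside a log2 ratio was calculated for the ratio without 1 FPKM added. It is therefore too wide for the ratios given, most of all where a level is low. Ifnar2, the chain that binds interferon most tightly and carries the STAT docking sites, was at 24.6 FPKM in mNRPCs and 3.05 FPKM in retina, a log2 ratio of 2.66 ± 0.27 (counting error). Summed over all transcripts of each gene, the order of the 2 genes was opposite in the libraries. The level of Ifnar2 was 1.47 times that of Ifnar1 in mNRPCs and 0.311 times that of Ifnar1 in retina.

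Both receptor genes also differed in the transcripts that made up their levels. Ifnar1 had a curated coding transcript and a predicted transcript of the non-coding class. The coding transcript was at 5.84 FPKM in mNRPCs and 9.11 FPKM in retina, a log2 ratio of −0.56. The predicted transcript was at 10.9 FPKM in mNRPCs and 0.709 FPKM in retina, and made up 65.1% of the gene's level in mNRPCs and 7.22% in retina. The direction of Ifnar1 therefore depended on whether the predicted transcript was counted. For Ifnar2, the transcript with a coding region of 248 residues in GENCODE was at 20.6 FPKM in mNRPCs and 1.55 FPKM in retina, a log2 ratio of 3.09. The transcript with 513 residues was at 3.62 FPKM in mNRPCs and 1.5 FPKM in retina, a log2 ratio of 0.89 on the scale with 1 FPKM added, which draws low levels together. This longer transcript lay below the coding transcript of Ifnar1 in both libraries, so the opposite order of the summed levels did not hold for these coding transcripts. The mouse gene is known to give a full receptor chain and a shorter soluble form. The shorter coding transcript held 83.9% of the gene's level in mNRPCs and 50.8% in retina. In the retina library it rested on an estimated 8.64 fragments and the longer one on 23.1. Fragments that fit several transcripts are divided by estimation, so these shares are less certain than the sums. Genes that overlap Ifnar2, Stat2 and Ifih1 in the annotation (Gm36587, Apof and Gm39839) were listed at 0 in both libraries.

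**Figure D3:**
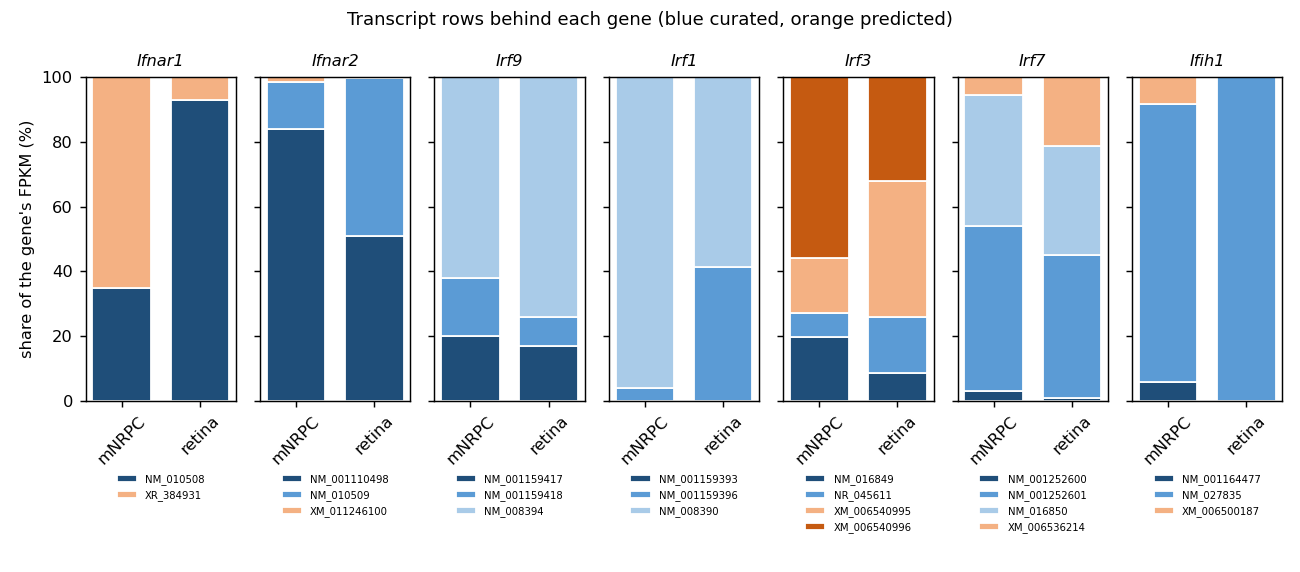
Share (%) of each gene's summed FPKM that came from each of its transcripts in the mNRPC and the retina library, for the 7 genes with more than 1 transcript, in blue for curated and orange for predicted transcripts. The predicted transcript of Ifnar1 takes 65.1% in mNRPCs and 7.22% in retina, and the Irf1 bar goes from 96.0% of 1 transcript in mNRPCs to 58.6% in retina.

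Stat2 and Irf9, both parts of the interferon-activated complex, were both higher in mNRPCs. Stat2 was at 56.6 FPKM in mNRPCs and 4.11 FPKM in retina, a log2 ratio of 3.50 ± 0.16. Irf9, the DNA-binding part of the complex, was at 74.4 FPKM in mNRPCs and 7.27 FPKM in retina, a log2 ratio of 3.19 ± 0.15. The level of Irf9 was 1.31 times that of Stat2 in mNRPCs and 1.77 times in retina, so the pair kept a like proportion while both levels were more than 10-fold apart between the libraries. Stat2 had 1 transcript in the table. All 3 transcripts of Irf9 were at least 2-fold higher in mNRPCs, with log2 ratios from 2.83 to 3.13.

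Irf1, a regulatory factor induced by interferons and cytokines that also acts on antigen presentation genes, was at 66.0 FPKM in mNRPCs and 3.06 FPKM in retina, a log2 ratio of 4.04 ± 0.26. The retina level rested on an estimated 32.8 fragments and the mNRPC level on 912. Of its 3 transcripts, 1 was listed at 0 in both libraries. The main transcript was at 63.4 FPKM in mNRPCs and 1.79 FPKM in retina, a log2 ratio of 4.53, and the other at 2.63 and 1.27 FPKM, a log2 ratio of 0.68.

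Irf3 and Irf7 are the factors that carry the signal of the RNA sensors to the interferon genes, Irf3 being known as present in most cells and Irf7 as inducible. Irf3 was at 35.2 FPKM in mNRPCs and 30.8 FPKM in retina, and the 95% counting intervals of 32.1 to 38.6 FPKM and 27.5 to 34.4 FPKM overlapped. Its log2 ratio was 0.19 ± 0.11 and turned to −0.37 with both libraries set to the same total. Of the 4 transcripts of Irf3, 2 predicted ones went in opposite directions, from 13 FPKM in retina to 5.99 FPKM in mNRPCs and from 9.85 to 19.7 FPKM, so the sum hides a different division among transcripts.

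Irf7 had the widest difference of the 9 genes. It was at 381 FPKM in mNRPCs and 9.27 FPKM in retina, a log2 ratio of 5.22 ± 0.15 and a linear ratio of 41.0. Among the 13780 genes compared it had rank 223 by level in mNRPCs, rank 6993 by level in retina and rank 111 by log2 ratio. The transcripts coding for 425 and 457 residues had 194 and 154 FPKM in mNRPCs against 4.11 and 3.13 FPKM in retina, with log2 ratios of 5.25 and 5.23. In mNRPCs, Irf7 was at 10.8 times the level of Irf3, and in retina at 0.301 times that level. The most abundant IRF was thus Irf7 in the mNRPC library and Irf3 in the retina library.

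The RNA sensors were the lowest of the 9 genes in retina. Ddx58 was at 47.0 FPKM in mNRPCs and 1.70 FPKM in retina, a log2 ratio of 4.15 ± 0.25 on an estimated 1179 and 33.4 fragments. Ifih1 was at 25.4 FPKM in mNRPCs and 1.49 FPKM in retina, a log2 ratio of 3.40 ± 0.23 on an estimated 868 and 41.3 fragments. Ddx58 was at 1.85 times the level of Ifih1 in mNRPCs and 1.14 times in retina. The retina counting intervals of the sensors, 1.17 to 2.38 FPKM for Ddx58 and 1.07 to 2.02 FPKM for Ifih1, overlapped, while those in mNRPCs, 44.4 to 49.8 and 23.7 to 27.1 FPKM, did not. Of the 3 transcripts of Ifih1, the one with the full coding region of 1025 residues held 86.1% of the level in mNRPCs, and the other 2 were listed at 0 in retina.

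In mNRPCs the levels fell in the order Irf7, Irf9, Irf1, Stat2, Ddx58, Irf3, Ifih1, Ifnar2 and Ifnar1. The counting intervals of Irf9 and Irf1 overlapped there, as did those of Ifih1 and Ifnar2. In retina the order was Irf3, Ifnar1, Irf7, Irf9, Stat2, Irf1, Ifnar2, Ddx58 and Ifih1. Only Irf3 from Ifnar1 and Irf9 from Stat2 were separated from their neighbours by non-overlapping intervals in retina. Ifnar1 was thus the lowest gene in mNRPCs and the second highest in retina.

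The other genes of the pathway were taken from lists by role. Of 84 genes in these lists 56 were compared, of which 31 were past 2-fold upwards in mNRPCs, 4 were past it downwards and 21 were within it, beside 24.5% higher and 30.0% lower over all genes. With both libraries set to the same total the counts were 25 and 9, without rod and cone genes 21 and 9, and with a pseudocount of 5 FPKM 21 and 1. The setting without rod and cone genes leaves out only 6 rod and 4 cone marker genes and then sets both libraries to the same total. Other photoreceptor genes stay in it. The median log2 ratio of the 56 genes was 1.12. No gene of the 20 interferon ligands reached 1 FPKM. Of the ligands, 19 were listed at 0 in both libraries, and Ifnb1, the gene of interferon beta, stood at 0.627 FPKM in mNRPCs on an estimated 3.04 fragments and had a listed 0 in retina. The limit that 3 fragments set for Ifnb1 was 0.618 FPKM in mNRPCs and 0.789 FPKM in retina, so the mNRPC value lay at the limit of detection. After rescaling to a common sum, Ifnb1 passed 1 FPKM in mNRPCs and counted as 1 higher ligand. The interferon alpha genes are near-identical copies whose reads are hard to assign, and a listed 0 need not mean absence.

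**Figure D4:**
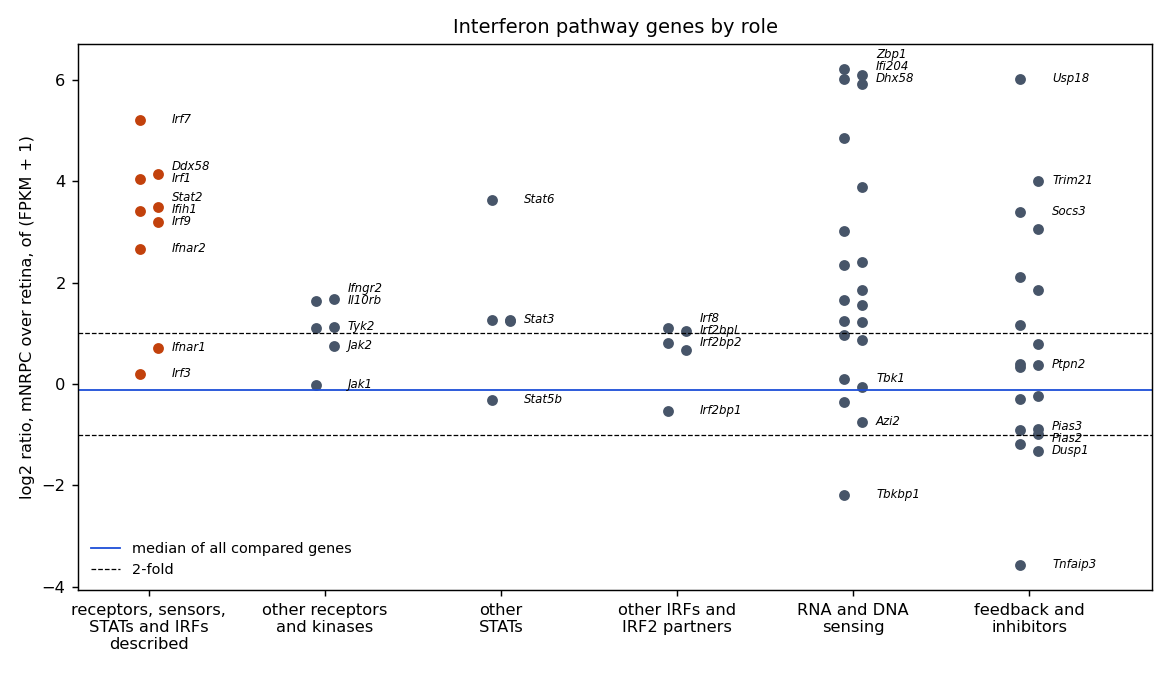
Log2 ratio of mNRPC over retina, as log2 of (FPKM + 1), for the 9 genes (orange) and for the compared genes of 5 lists of other pathway genes (dark grey), with names for those given in the text. Genes under 3 fragments in 1 library (Zbp1, Ifi204, Tbkbp1 and the unlabelled Cgas, Nlrc5 and Ptpn6) are drawn at values that depend on the pseudocount. The kinase Jak1 lies at −0.03 and Usp18 at 6.02.

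Of the 7 other receptors and kinases, 4 were higher, 2 lay between and Ifnlr1 was not compared. The interferon gamma receptor chains Ifngr1 and Ifngr2 had 36.4 and 28.5 FPKM in mNRPCs against 16.4 and 8.26 FPKM in retina, log2 ratios of 1.10 and 1.67. Il10rb, a chain shared by interleukin 10 and interferon lambda receptors, was at 8.51 FPKM in mNRPCs and 2.06 FPKM in retina (1.64). Tyk2 was at 6.98 and 2.64 FPKM (1.13). Jak1, the kinase bound to IFNAR2, was at 10.8 FPKM in mNRPCs and 11 FPKM in retina (−0.03), and Jak2 at 22.6 and 13 FPKM (0.76). Of this list, 2 genes were past 2-fold when both libraries were set to the same total, and 1 with a pseudocount of 5 FPKM or with accessions matched by version. The receptor genes of chromosome 16 lie together. Il10rb is the next coding gene after Ifnar2, and Ifnar1 lies between Il10rb and Ifngr2.

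Of the 6 other STAT genes, 4 were higher. The count was 2 after rescaling to a common sum or with a pseudocount of 5 FPKM, and 1 without rod and cone genes. Stat6, the transducer of interleukin 4 signalling, was at 35.0 FPKM in mNRPCs and 1.92 FPKM in retina, a log2 ratio of 3.62. Stat3, a transducer of interleukin 6 signalling, was at 36.0 and 14.4 FPKM (1.26). Stat5b was at 8.64 and 11 FPKM (−0.32), and Stat4 was listed at 0 in both libraries.

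Among the other IRF genes and the IRF2-binding proteins, 2 of 8 were higher, 3 lay between and 3 were not compared. Irf8, known from myeloid cells, had 1.84 FPKM in mNRPCs on an estimated 33.9 fragments, against 0.327 FPKM in retina on 4.42 (log2 ratio 1.10). Irf2bpl was at 33.2 and 15.6 FPKM (1.04), Irf2bp2 at 17.3 and 9.47 FPKM (0.81) and Irf2bp1 at 23.5 and 34.3 FPKM (−0.53). Irf4 and Irf5 were under 1 FPKM in both libraries. Neither Irf8 nor Irf2bpl was past 2-fold with a pseudocount of 5 FPKM or without rod and cone genes, and 1 gene of this list was after rescaling to a common sum.

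The sensing list had 14 higher genes of 21 compared, 1 lower and 6 between. Dhx58, which encodes LGP2, the third RIG-I-like receptor, was at 84.1 FPKM in mNRPCs and 0.311 FPKM in retina, an estimated 3.80 fragments. Its log2 ratio was 6.02, and the counting error of 0.74 is that of the ratio without 1 FPKM added. The 3 RIG-I-like receptor genes thus had the order Dhx58, Ddx58, Ifih1 in mNRPCs, while Dhx58 was the lowest of them in retina. Zbp1, a sensor of Z-form nucleic acid, was at 78.8 FPKM in mNRPCs and 0.0695 FPKM in retina. Set against the limit of 3 fragments, this is at least 184-fold higher. Ifi204, a DNA sensor of a gene family with similar copies, had 67.3 FPKM in mNRPCs and a listed 0 in retina. Sting1, the adaptor of cytosolic DNA sensing, was at 79.3 and 0.326 FPKM (5.92, counting error 0.76 without 1 FPKM added). Mavs, the adaptor of both RNA sensors, was at 27.4 and 11.2 FPKM (1.23). The kinase Tbk1, which acts on IRF3, was at 17.5 and 16.2 FPKM (0.10), and its adaptor gene Azi2 at 17.0 and 29.4 FPKM (−0.76). Tbkbp1, another TBK1 adaptor, was the lower gene, at 0.0740 FPKM in mNRPCs and 3.91 FPKM in retina. Against that limit it was at least 28.1-fold lower.

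Of 19 compared genes that restrain the pathway, 7 were higher, 3 were lower and 9 lay between. Usp18, which blocks signalling at IFNAR2, was at 99.3 FPKM in mNRPCs and 0.549 FPKM in retina, an estimated 4.93 fragments. Its log2 ratio was 6.02, with a counting error of 0.65 for the ratio without 1 FPKM added. Trim21 was at 30.9 and 0.978 FPKM (4.01), and Socs3 at 27.5 and 1.72 FPKM (3.39). Socs1, an inhibitor of JAK kinases, was at 7.25 and 0.898 FPKM (2.12). Tnfaip3, the gene of the NF-kappaB inhibitor A20, was at 6.17 FPKM in mNRPCs and 84.6 FPKM in retina, a log2 ratio of −3.58. Dusp1 was at 4.88 and 13.7 FPKM (−1.32) and Pias2 at 10.5 and 25.2 FPKM (−1.19). The phosphatase gene Ptpn2 was at 34.1 and 25.9 FPKM (0.38) and Pias3 at 18.8 and 38.5 FPKM (−0.99).

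The pathway genes nearest to each of the 9 genes were found among 56 compared genes by the distance between their pairs of log2(FPKM + 1) levels, which rests on 2 libraries. Irf2bp2 was nearest to Ifnar1 with a distance of 0.07, Socs3 to Ifih1 (0.17) and Ptpn2 to Irf3 (0.24). Socs3 was also nearest to Ifnar2 (0.60), and Stat6 to Ddx58 (0.43), Irf1 (1.02) and Stat2 (1.05). Trim25 was nearest to Irf9 (1.21). Irf7 had no close neighbour, with Usp18 nearest at a distance of 3.34.

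Markers of the cell types that the samples could hold were read beside these values. Rod genes were at 885 to 5072 FPKM in retina and at 0.255 to 2.58 FPKM in mNRPCs. The progenitor label was met in part. Pax6, Six3, Sox2, Nes and Ccnd1 were at 9.42 FPKM or more in mNRPCs and Lhx2 was at 3.06 FPKM, while Rax was listed at 0. Of 12 microglia and macrophage markers 9 were listed at 0 in mNRPCs, among them Cx3cr1, P2ry12, Aif1, Itgam and Ptprc. Cd68 was at 1.82 FPKM in mNRPCs and 1.35 FPKM in retina, and Tmem119 at 1.22 and 0.880 FPKM. Of the 5 compared genes of this list 0 were higher, 3 were lower and 2 lay between. The 12 markers summed to 3.06 FPKM in mNRPCs and 20.9 FPKM in retina. The 6 endothelial markers summed to 1.03 FPKM in mNRPCs and 47.8 FPKM in retina, and the 5 lymphocyte markers to 0.106 and 0.743 FPKM. Col3a1, on the pericyte and fibroblast list, was at 450 FPKM in mNRPCs and 0.311 FPKM in retina, and Pdgfrb at 4.49 and 1.24 FPKM (log2 ratio 1.29). Of that list 2 genes were higher, 1 was lower and 2 lay between, with Rgs5 listed at 0 in mNRPCs and Lum in both libraries. The part of fibroblast-type genes in the values above was not tested. In bulk samples, more cells of a type and more RNA per cell cannot be told apart.

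Each log2 ratio was recomputed under other pseudocounts, scalings and ways of summing transcripts. The 7 genes past 2-fold stayed above it in each of 76 values, of which the lowest was 1.88, for Ifnar2 with a pseudocount of 5 FPKM. Ifnar1 turned to −0.56 with curated transcripts only, with the top transcript only and with accessions matched by version, and Irf3 turned to −0.37 and −0.43 under the 2 settings that give both libraries a common sum.

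**Figure D5:**
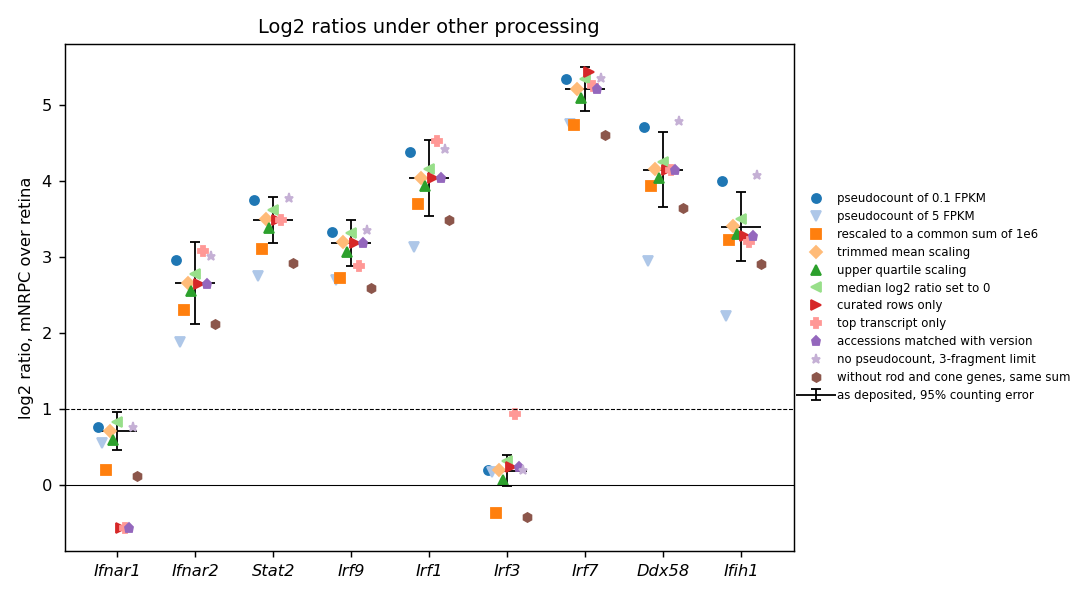
Log2 ratio of mNRPC over retina for each of the 9 genes under each alternative setting (coloured marks) and as deposited (black dash, with the 95% counting error as bars), with lines at 0 and at 2-fold. The bars were calculated for the ratio without 1 FPKM added and are too wide for the black dashes. Marks of Ifnar1 and Irf3 fall on both sides of 0, and those of the other genes stay at 1.88 or above.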

How the data were processed

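The deposited table gave FPKM per RefSeq transcript, calculated by the authors. The study's methods name quality control, Bowtie 2 with slightly changed settings and eXpress, while the submitters' processing notes name TopHat2 2.0.10 and genome build GRCm38.p3. The annotation release was not given in the sources used here.

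Accessions were matched without version to RefSeq (GRCm38.p6), then GENCODE M21, which named 74283 of 106754 rows with 93.2% of the mNRPC and 89.9% of the retina FPKM. Values under 1e-06 FPKM were read as 0, and rows were summed per symbol. Log2 ratios (mNRPC over retina) were taken after adding 1 FPKM, so changes of low genes are understated. Genes of at least 1 FPKM in either library were compared. Counts were not used here. Depth was estimated from FPKM times length among the low values of genes with 1 transcript, as 6.47e+06 fragments for mNRPCs and 5.07e+06 for retina. Fragments, intervals and the limit of 3 fragments are estimates that cover counting error only. Counting errors of log2 ratios are those of the ratio before 1 FPKM is added. Lengths came from GENCODE M21. Predicted rows without a length took the median of their gene.

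Members and lists were chosen with earlier results of these data known. Named were all 9 genes and, per list, up to 3 genes with the largest and 3 with the smallest log2 ratio past 2-fold and the 2 highest between, the nearest pathway gene of each member and markers, plus others chosen after their values were seen (Ifngr1, Stat4, Irf4, Irf5, Sting1, Mavs, Socs1). Some genes of these lists are not reported here. The calculation was checked on simulated counts with known changes, drawn from the retina levels with counting error only. Such counts hold no variation between replicates, so the check does not bear on how far the 2 libraries stand for their groups. Python 3.11.15, pandas 2.3.3 and SciPy 1.17.1 were used.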

Additional observations from a re-analysis of the deposited data

How the results depend on the processing

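The number of the 9 genes at least 2-fold higher was 7 in each alternative except matching by accession version, which found 6 because Stat2 had no match, and the number lower was 0 throughout. Of 98 recomputed log2 ratios of these genes 68 moved by less than the 95% counting error, which is wider than the error given beside each ratio, 30 moved by more and 5 changed sign, all of Ifnar1 and Irf3. The counting error was that of the ratio without 1 FPKM added and is too wide here, so the 30 may be an undercount. The median of the 9 genes, 3.40 as deposited, was 3.75 with a pseudocount of 0.1 FPKM, 2.69 with 5 FPKM, 2.91 without rod and cone genes, and 3.78 with no pseudocount but a lower limit of 3 fragments. Of the other pathway genes, 4 were lower as deposited, 1 with a pseudocount of 5 FPKM, 7 with upper quartile scaling, 9 after rescaling to a common sum and 9 without rod and cone genes. With a threshold of 2 on the log2 scale 15 were higher and 2 lower, fewer by construction, among them 0 other receptors and kinases, 1 other STAT, 0 other IRFs and 9 sensing genes higher. That threshold left 1547 of 3371 higher and 1942 of 4130 lower genes of all compared. A pseudocount of 5 FPKM left 2153 lower, and rescaling to a common sum gave 6609. The higher share of genes past 2-fold was 44.9% as deposited, 52.4% with a pseudocount of 5 FPKM and 50.9% with a minimum of 5 FPKM. After rescaling to a common sum it was 29.0%, and without the 6 rod and 4 cone marker genes 28.3%. Under the latter settings the median of all genes went to −0.74 and −0.71. Relative to that median, Irf3 stayed above 0 under each scaling (0.29 to 0.38) and Ifnar1 too (0.82 to 0.94). The sign of Ifnar1 turned by construction, since its predicted transcript was left out there. For the other changes the cause was not tested. The depth estimate ranged from 6.40e+06 to 6.47e+06 fragments for mNRPCs and from 4.90e+06 to 5.51e+06 for retina with other minimum lengths. No paired analysis was possible because there was a single library per group.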

Other observations

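The response element (GAAA, any 2 bases, GAAA) was also counted in the promoter windows of all genes compared, as a description with no test. It was in 4.66% of 3369 windows of genes at least 2-fold higher in mNRPCs, in 2.70% of 4220 windows of lower genes and in 2.37% of 6422 windows of genes between. For the gamma-activated site (TTCNNNGAA) the shares were 6.68%, 6.16% and 6.84%. Of the pathway genes with the response element in a window, Trim21, Eif2ak2, Socs1 and Myd88 were at least 2-fold higher in mNRPCs (log2 ratios 4.01, 3.88, 2.12 and 1.65), Irf2 lay between (0.66), and the other 12 genes, Stat4 and 11 interferon alpha or related genes, were listed at 0 in both libraries. Eif2ak2 encodes the RNA-activated kinase PKR, which was at 35.0 FPKM in mNRPCs and 1.44 FPKM in retina.

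Of the coding genes next to Irf3, 1 was past 2-fold and 1 within it. Bcl2l12, on one side, was at 16.8 FPKM in mNRPCs and 1.68 FPKM in retina (log2 ratio 2.73), and Scaf1, on the other, at 16.0 and 18.3 FPKM (−0.18). Around Irf7, Phrf1 was at 13.2 and 14.1 FPKM (−0.08) and Cdhr5 at 1.65 and 0.125 FPKM (1.24).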
